A study of Mus musculus with 8 samples.

Results

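Glycolysis and the transcriptional response to low oxygen were followed in mouse bone marrow-derived monocytes (BMDMs) through 36 gene symbols. The list was fixed by name, with earlier results of these data known. It covers transporters of glucose and lactate, the enzymes of glycolysis, enzymes that set the fate of pyruvate, and genes of oxygen sensing and hypoxia. These symbols matched 37 rows of the 21958 genes in the deposited tables, because Aldoa named 2 adjacent loci. All 8 libraries contained BMDMs of C57BL/6 background that were cultured with 50 ng/ml M-CSF and 100 ng/ml RANKL, the cytokines that drive monocytes towards osteoclasts. There were 2 experiments, each with 2 libraries per group, and the study asked in each how the perturbation changes the transcriptome of RANKL-treated cells.

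The first experiment compared Arid1a cKO with Arid1a control BMDMs. Arid1a encodes a DNA-binding subunit of the BAF (SWI/SNF) chromatin remodeller, and the cKO cells came from LysM-Cre;Arid1a fl/fl mice, in which the LysM promoter drives Cre in myeloid cells and Cre removes exons 5 and 6. The labels give the genotype of the other group only as control, and the study describes its controls as littermates. The second experiment compared JQ1 with JQ1 control BMDMs, all labelled wild type. JQ1 is an inhibitor of BET bromodomain proteins, which read acetylated histones. JQ1 treatment is given in the sample titles alone, and the columns of its table carry group codes that were read as JQ1 and JQ1 control, so its libraries are named a and b here. The labels give no harvest time or age, and they do not say whether replicates came from separate animals. The study describes its Arid1a bulk samples as biologically independent, without saying whether that means animals or cultures. For JQ1 nothing of the kind was found, so p-values there measure only the spread between these libraries, which may be technical.

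Glycolysis splits glucose into pyruvate in the cytosol and yields ATP without oxygen. Pyruvate can then be reduced to lactate and exported, or enter mitochondria through pyruvate dehydrogenase, which pyruvate dehydrogenase kinases restrain. The hypoxia-inducible factor HIF is a transcription factor whose alpha subunit is hydroxylated and degraded when oxygen is present. It is known to raise many glycolytic genes, and osteoclast differentiation is known to be a process of high energy demand.

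HIF binds DNA at the core ACGTG or GCGTG, and the E-box CACGTG, which contains ACGTG on both strands, is read by MYC and related factors. Promoter windows of 300 bases (250 before and 50 after the start) were taken from RefSeq on build GRCm38.p6, whereas the counts were made on GRCm39. All 36 symbols matched, with 50 windows among 32851. ACGTG occurred on either strand in 56.0% of these windows and in 19.6% of all windows, GCGTG in 60.0% and 32.4%, and CACGTG in 12.0% and 7.15%. The windows also held more CG dinucleotides, with a median of 20.5 against 7 in all windows, and both cores contain CG, so these shares are a description and not evidence of binding. Windows of 6 genes on whose values the results turn, chosen with those values known, are printed 5′ to 3′ on the coding strand. Where a gene had several windows, one containing a core was chosen, and capitals mark every ACGTG or GCGTG on either strand (reverse complements CACGT and CACGC).
Slc16a1, chr3:104638414-104638713, plus strand: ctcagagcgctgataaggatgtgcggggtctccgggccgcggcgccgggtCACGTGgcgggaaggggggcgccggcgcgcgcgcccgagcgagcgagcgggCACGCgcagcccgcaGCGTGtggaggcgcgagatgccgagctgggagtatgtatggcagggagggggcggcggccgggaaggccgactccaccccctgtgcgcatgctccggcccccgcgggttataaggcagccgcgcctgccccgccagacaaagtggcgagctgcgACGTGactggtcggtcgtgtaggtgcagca
Eno1, chr4:150236947-150237246, plus strand: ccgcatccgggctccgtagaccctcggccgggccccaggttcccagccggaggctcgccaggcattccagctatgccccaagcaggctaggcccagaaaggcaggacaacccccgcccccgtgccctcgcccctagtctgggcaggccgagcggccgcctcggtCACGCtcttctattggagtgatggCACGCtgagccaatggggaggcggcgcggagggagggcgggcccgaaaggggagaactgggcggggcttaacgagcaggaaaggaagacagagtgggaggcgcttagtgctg
Ldha, chr7:46845554-46845853, plus strand: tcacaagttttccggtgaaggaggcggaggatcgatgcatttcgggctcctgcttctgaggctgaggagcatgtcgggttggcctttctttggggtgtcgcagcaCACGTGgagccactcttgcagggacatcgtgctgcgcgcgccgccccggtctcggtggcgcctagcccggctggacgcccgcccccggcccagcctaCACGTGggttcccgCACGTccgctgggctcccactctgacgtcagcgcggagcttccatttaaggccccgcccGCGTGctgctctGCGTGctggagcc
Pgk1, chrX:106186850-106187149, plus strand: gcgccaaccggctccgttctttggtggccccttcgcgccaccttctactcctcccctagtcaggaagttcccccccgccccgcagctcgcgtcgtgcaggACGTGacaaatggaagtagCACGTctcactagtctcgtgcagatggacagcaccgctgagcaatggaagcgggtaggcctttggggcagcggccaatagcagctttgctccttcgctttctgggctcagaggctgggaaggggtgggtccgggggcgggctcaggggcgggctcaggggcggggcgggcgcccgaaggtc
Pfkfb3, chr2:11502041-11502340, minus strand: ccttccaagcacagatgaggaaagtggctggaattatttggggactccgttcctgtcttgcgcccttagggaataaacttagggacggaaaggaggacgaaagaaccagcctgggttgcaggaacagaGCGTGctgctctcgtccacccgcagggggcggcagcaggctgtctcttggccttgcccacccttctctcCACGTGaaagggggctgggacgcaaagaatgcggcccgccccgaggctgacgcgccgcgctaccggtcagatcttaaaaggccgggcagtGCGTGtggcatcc
Hk2, chr6:82774405-82774704, minus strand: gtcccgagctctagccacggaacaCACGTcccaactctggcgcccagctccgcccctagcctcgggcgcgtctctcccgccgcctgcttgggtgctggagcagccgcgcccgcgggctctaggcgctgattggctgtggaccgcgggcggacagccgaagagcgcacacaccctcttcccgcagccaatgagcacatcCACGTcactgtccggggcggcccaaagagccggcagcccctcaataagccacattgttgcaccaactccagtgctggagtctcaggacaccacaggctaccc
Both directions of change are present among these genes, since Slc16a1, Eno1, Ldha and Pgk1 fell and Pfkfb3 and Hk2 rose in Arid1a cKO cells. The Ldha window carried 2 E-boxes, the Slc16a1 and Pfkfb3 windows 1 each, and the Eno1 window carried GCGTG but not ACGTG.

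Library totals lay between 15108239 and 17302136 reads assigned to genes. Arid1a itself had 126 and 121 CPM (read counts scaled to the library size) in cKO, against 159 and 229 CPM in control, a log2 fold change of -0.65 ± 0.15 (SE, adjusted p = 0.0061). Since only 2 exons are removed, whole-gene reads check the genotype weakly. Hexim1, a gene known to rise under BET inhibition, had 106 and 111 CPM in JQ1 and 54.9 and 54.4 CPM in JQ1 control. Of 12 macrophage markers 8 were higher and 2 lower in cKO, with a summed level of 10156 and 10142 CPM in cKO and 16763 and 14347 CPM in control that was set mainly by Lyz2, and 5 were higher and 5 lower in JQ1. The defining osteoclast gene Calcr had 0 reads in all 8. Of 8 osteoclast markers tested in the Arid1a experiment 1 was higher and 4 were lower in cKO, and of 7 tested in the JQ1 experiment 1 was higher and 5 were lower in JQ1. Neutrophil markers moved with both comparisons: their summed level was 255 to 280 CPM in cKO and 149 to 155 CPM in control, with 10 of 12 higher, and 38.2 to 39.1 CPM in JQ1 and 97.4 to 98.0 CPM in JQ1 control, with 9 of 12 lower. Of 5 stromal genes tested 4 were lower in JQ1, with 24.6 and 25.7 CPM in sum, against 60.0 and 49.4 CPM in JQ1 control. Of 4 tested in the Arid1a experiment 1 was lower in cKO, with 22.3 and 28.3 CPM in sum, against 29.1 and 28.7 CPM in control. Ly6g and Retnlg, which define mature neutrophils, were at or near 0 throughout, and the part of these shifts in the results that follow was not tested. These are bulk samples, in which fewer cells of a type and less RNA per cell cannot be told apart.

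Arid1a loss lowered most enzymes of the glycolytic backbone and raised a smaller set that included hexokinases and the regulators of phosphofructokinase. In edgeR's quasi-likelihood test, with Benjamini-Hochberg adjustment over all genes and a threshold of 0.05, 22 of the 36 rows tested changed in cKO, 8 higher and 14 lower. The background was 34.4% of all 11319 genes tested (18.1% higher and 16.3% lower), and the share of members called was 61.1% (22.2% higher and 38.9% lower). With total counts in place of TMM, calls higher were 42.8% of all calls in place of 52.6%, and 8 members were higher and 15 lower. The median log2 fold change of the members was -0.24, and that of all genes tested was -0.00. The members are abundant, with a median of 110 CPM against 31.8 CPM for all genes tested, and abundant genes are measured more precisely. Values of cKO and control did not overlap for 32 of the 36 rows (13 higher, 19 lower in cKO), where 69.2% of all genes tested did not overlap (34.4% higher and 34.8% lower). Together the members took 1.17% and 1.19% of reads in cKO, against 1.60% and 1.51% in control.

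JQ1 changed fewer of them, and mostly downwards. Of 35 rows tested 16 changed, 4 higher and 12 lower in JQ1, which is 45.7% against a background of 39.8% of 11352 genes (19.3% higher and 20.5% lower). The share called is thus near the background, with 11.4% of the members higher and 34.3% lower. The median log2 fold change was -0.20 for the members and 0.00 for all genes. Groups did not overlap for 28 rows (5 higher, 23 lower), against 68.4% of all genes (34.2% higher and 34.2% lower). The members took 1.24% and 1.22% of reads in JQ1, against 1.35% and 1.39% in JQ1 control. The split of calls depended on the scaling: with total counts in place of TMM, 3 members were higher and 18 lower, and the share of higher calls among all called genes was 36.4% in place of 48.45%.

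**Figure D1:**
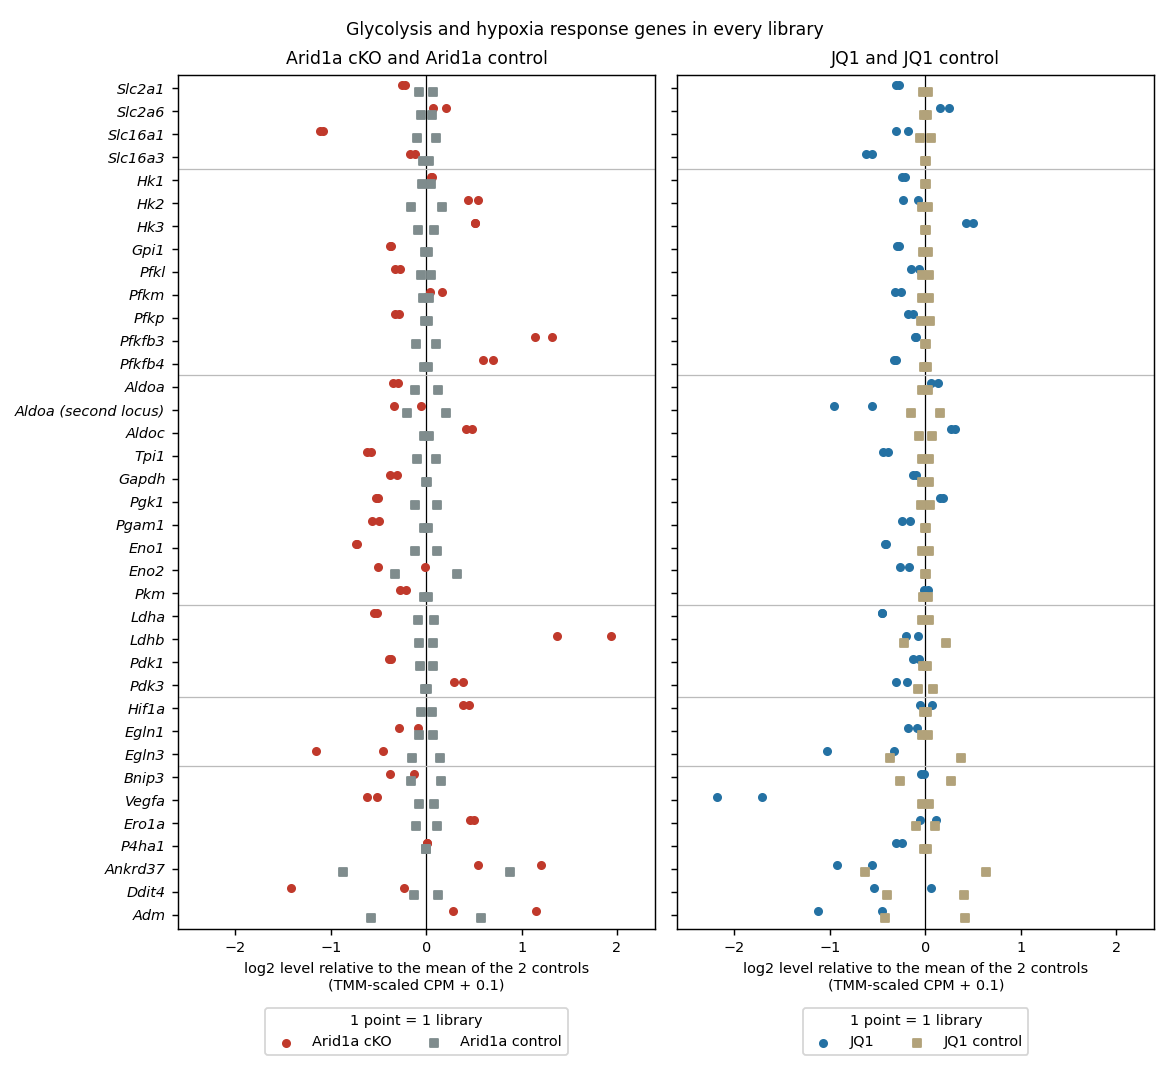
Level of every member row in every library, as log2 (TMM-scaled CPM + 0.1) minus the mean of the 2 controls of its experiment, with Arid1a cKO and control on the left and JQ1 and JQ1 control on the right, and lines between functional groups. Slc16a1 lies furthest left among abundant genes in cKO, Pfkfb3 and Ldhb furthest right, and Vegfa furthest left in JQ1, while points of Adm, Ankrd37 and Ddit4 rest on few reads.

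Among the transporters, the lactate and pyruvate carriers separated the experiments. Slc16a1, a proton-coupled monocarboxylate carrier (GRCm39 chr3:104545984-104565778), had 22.3 and 21.8 CPM in cKO and 50.8 and 44.1 CPM in control. Both cKO libraries lay below both controls, and the fall of 1.11 ± 0.12 on the log2 scale (adjusted p = 7.1e-05) was the lowest fold change among the members tested in that experiment. In the JQ1 experiment Slc16a1 had 26.8 and 24.6 CPM in JQ1 and 31.7 and 29.2 CPM in JQ1 control, a log2 fold change of -0.25 ± 0.11 that did not pass (adjusted p = 0.053). The difference between the responses, tested as an interaction over all 8 libraries, was -0.86 ± 0.16 (adjusted p = 0.00063).

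Slc16a3, the carrier that exports lactate from strongly glycolytic cells, was also lower in both, but was called in JQ1 and not in cKO. It had 88.8 and 92.8 CPM in JQ1 and 137 and 137 CPM in JQ1 control, without overlap, and fell by 0.59 on the log2 scale (SE 0.07, adjusted p = 6.8e-14). In cKO it had 202 and 210 CPM, against 232 and 223 CPM in control, and did not pass (-0.14 ± 0.09). The difference of 0.45 ± 0.10 passed (adjusted p = 0.0029). Per gene length, in FPKM, Slc16a1 supplied 11.7% and 11.1% of the sum of both carriers in cKO, against 20.8% and 19.2% in control, and 26.6% and 24.1% in JQ1, against 21.7% and 20.4% in JQ1 control. The smaller carrier's share was thus lower in cKO and higher in JQ1 than in the matching controls.

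The glucose transporters among the members, Slc2a1 and Slc2a6, changed little. Slc2a1, the main basal glucose transporter of most cells, had 70.9 and 69.6 CPM in JQ1 and 84.3 and 87.4 CPM in JQ1 control and fell by 0.29 on the log2 scale (SE 0.07, adjusted p = 0.00059). In cKO its log2 fold change of -0.24 ± 0.10 did not pass (adjusted p = 0.081), with 123 and 125 CPM in cKO and 139 and 153 CPM in control. Slc2a6, a lysosomal sugar transporter of macrophages, rose by 0.20 ± 0.07 in JQ1 (adjusted p = 0.024), a call lost with DESeq2, with total counts as the scaling, in 1 fit over all libraries, and when JQ1 library b or JQ1 control library b was left out (adjusted p up to 0.23). Slc2a6 made up 53.7% and 55.7% of the FPKM of the 2 transporters in JQ1, against 47.0% and 45.5% in JQ1 control.

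**Figure D2:**
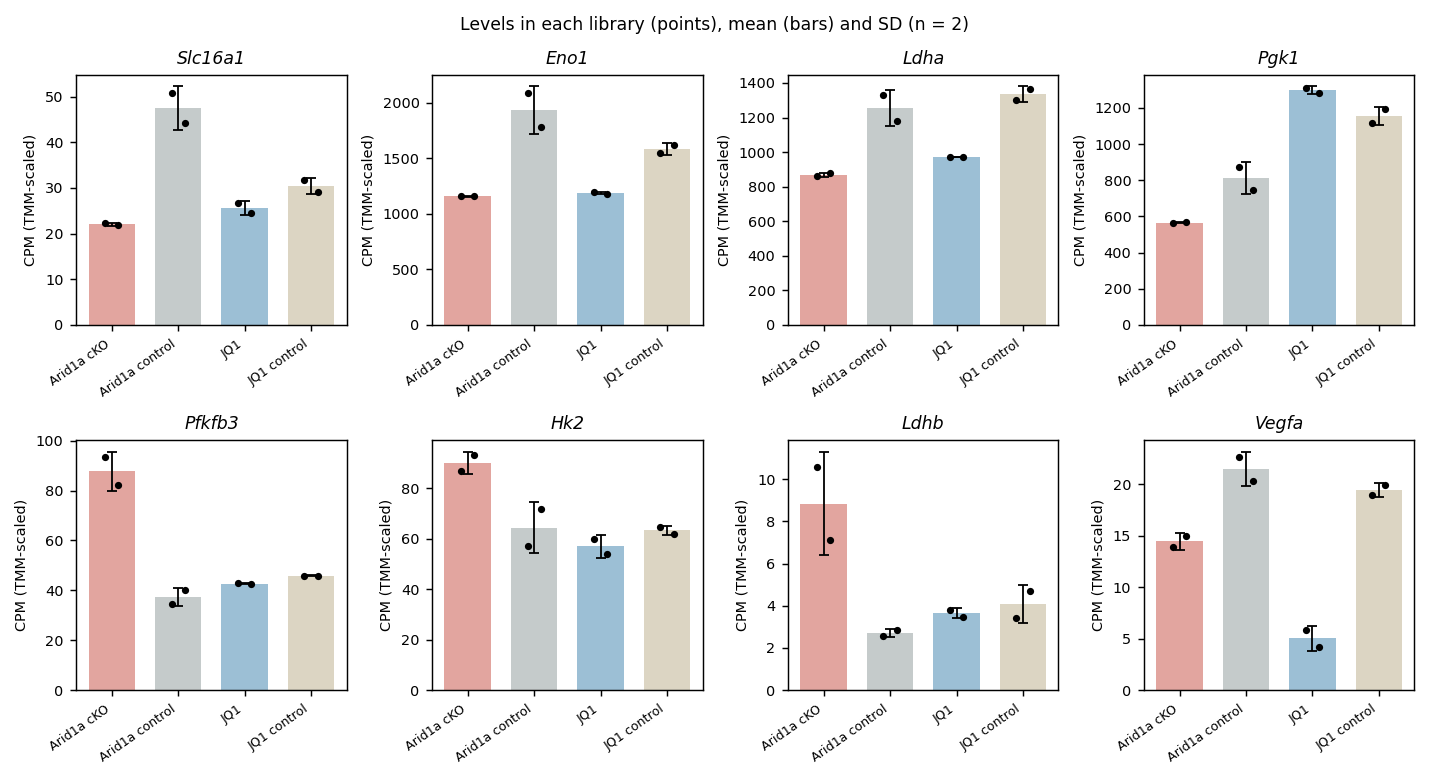
TMM-scaled CPM of 8 genes in each library (points), with the group mean (bars from 0) and SD (n = 2), for Arid1a cKO, Arid1a control, JQ1 and JQ1 control from left to right. Slc16a1 lay at 21.8 to 22.3 CPM in cKO and 44.1 to 50.8 CPM in control, Pgk1 was lower in cKO and higher in JQ1 than in the matching controls, and Vegfa was lower in both.

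At the entry of glycolysis, the hexokinases, which trap glucose as its phosphate, rose in cKO or did not pass. Hk2, the inducible isoenzyme (GRCm39 chr6:82702006-82751435), had 86.9 and 93.2 CPM in cKO and 57.2 and 71.6 CPM in control. Its log2 fold change was 0.48 ± 0.12 (adjusted p = 0.012), and the call was lost without cKO library 2 (adjusted p = 0.12). In JQ1 it had 60.1 and 53.8 CPM, against 64.7 and 62.0 CPM in JQ1 control (-0.15 ± 0.08, adjusted p = 0.11). The difference between responses was 0.64 ± 0.15 (adjusted p = 0.0045).

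Hk3, the isoenzyme typical of myeloid cells, rose in both experiments. It had 240.4 and 239.7 CPM in cKO, against 179 and 159 CPM in control (0.51 ± 0.09, adjusted p = 0.0020), and 650 and 684 CPM in JQ1, against 483 and 487 CPM in JQ1 control (0.46 ± 0.05, adjusted p = 1.6e-14). The difference of 0.05 ± 0.10 did not pass. Hk1, the housekeeping isoenzyme, fell by 0.23 on the log2 scale in JQ1 (SE 0.06, adjusted p = 0.00066) and did not pass in cKO (0.05 ± 0.09). Its difference of 0.28 ± 0.10 passed narrowly (adjusted p = 0.039) and was lost with DESeq2, with RLE or upper-quartile factors, with no filter on low counts and without any 1 library of cKO, JQ1 or JQ1 control (adjusted p up to 0.14). Per length, Hk3 was the leading hexokinase in every library, at 61.5% and 60.8% of hexokinase FPKM in cKO, 58.7% and 53.0% in control, 85.9% and 87.0% in JQ1, and 80.0% and 80.2% in JQ1 control.

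Gpi1, which turns glucose 6-phosphate into fructose 6-phosphate, fell in both. It had 655 and 661 CPM in cKO, against 863 and 843 CPM in control (-0.37 ± 0.08, adjusted p = 0.0046), and 470.1 and 464 CPM in JQ1, against 560.4 and 582 CPM in JQ1 control (-0.29 ± 0.05, adjusted p = 4.0e-07). Of the phosphofructokinase subunits, which catalyse the committed step, Pfkl fell by 0.30 and Pfkp by 0.31 on the log2 scale in cKO (adjusted p = 0.029 and 0.021). Pfkp also fell by 0.16 in JQ1 (adjusted p = 0.024), a call lost with DESeq2 and in 1 fit over all libraries, while Pfkl (-0.11 ± 0.06) did not pass there. Pfkm, the muscle subunit, passed in neither experiment (0.10 ± 0.15 in cKO and -0.29 ± 0.13 in JQ1). At 300 aligned bases and 95% identity, Pfkm matched 1 other annotated gene, which was not a pseudogene. In cKO the calls on Gpi1, Pfkl and Pfkp were lost when either cKO library was left out (adjusted p up to 0.16, 0.36 and 0.33). In JQ1 the call on Pfkp was lost without JQ1 library a, JQ1 library b or JQ1 control library b (adjusted p up to 0.24).

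The bifunctional enzymes that set fructose 2,6-bisphosphate, the strongest activator of phosphofructokinase, behaved unlike the subunits they regulate in cKO, but not in JQ1. Pfkfb3 (GRCm39 chr2:11476244-11558888) had 93.3 and 82.2 CPM in cKO and 34.7 and 40.0 CPM in control. The 2.35-fold rise (log2 1.23 ± 0.12, adjusted p = 2.9e-05) exceeded the spread within either group. Under JQ1 Pfkfb3 had 42.9 and 42.5 CPM, against 45.7 and 45.9 CPM in JQ1 control (-0.10 ± 0.09, adjusted p = 0.38). The difference of 1.33 ± 0.14 passed (adjusted p = 2.6e-06).

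Pfkfb4 moved in opposite directions. It had 30.1 and 32.2 CPM in cKO, against 20.1 and 19.6 CPM in control (0.65 ± 0.12, adjusted p = 0.0024), and 23.4 and 22.9 CPM in JQ1, against 28.5 and 29.2 CPM in JQ1 control (-0.32 ± 0.11, adjusted p = 0.014). Its difference was 0.97 ± 0.15 (adjusted p = 0.00017). The fall in JQ1 was lost with DESeq2 and without JQ1 library a, JQ1 library b or JQ1 control library b (adjusted p up to 0.10). Of the FPKM of the 2 enzymes, Pfkfb3 made up 66.7% and 62.2% in cKO, 52.7% and 56.8% in control, 54.2% and 54.4% in JQ1, and 50.8% and 50.4% in JQ1 control.

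**Figure D3:**
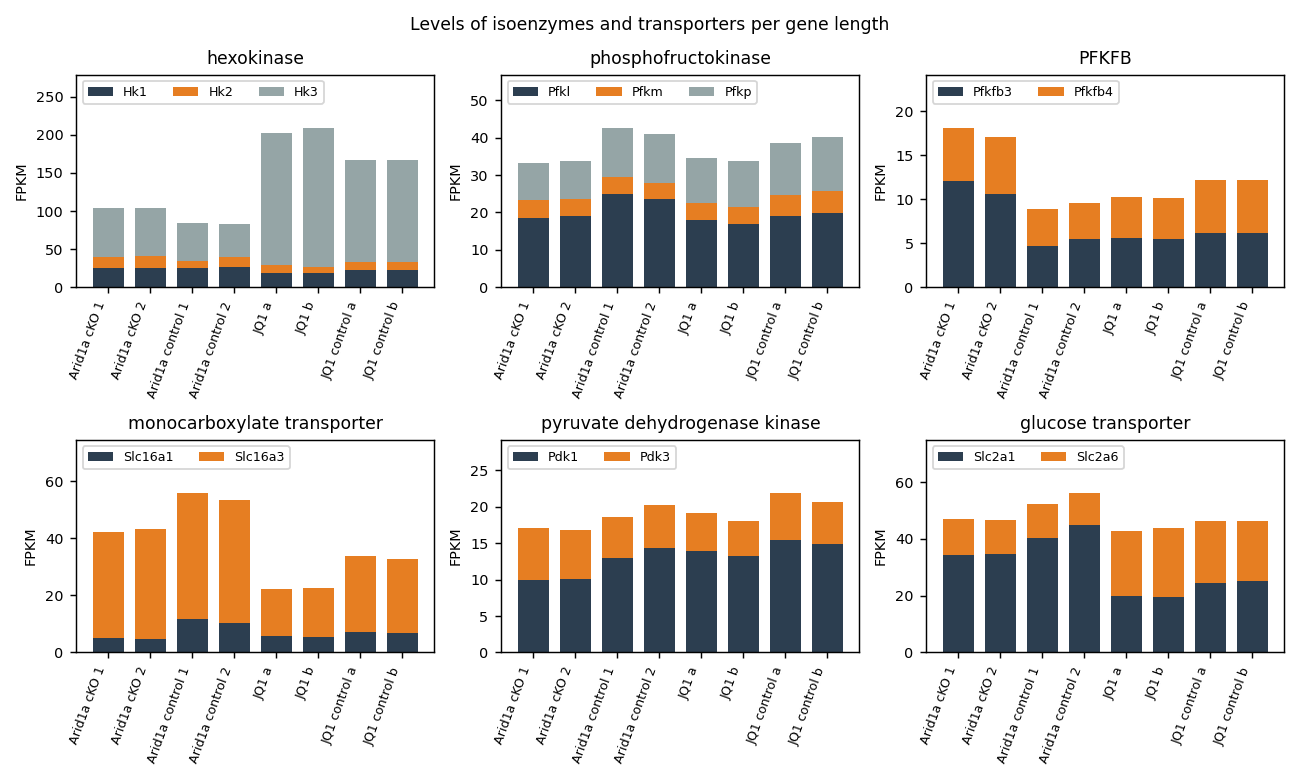
FPKM of isoenzymes and transporters stacked by gene in each of the 8 libraries, with treated libraries left of their controls in each experiment. Hk3 forms the largest part of the hexokinase bars in every library, Pfkfb3 gains in cKO, and the Slc16a1 share of the carrier bars is smallest in cKO (11.7% and 11.1%).

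From the splitting of fructose bisphosphate down to pyruvate, 7 of 10 rows tested fell and 1 rose in cKO (of all genes 16.3% fell and 18.1% rose). Their summed level was 8265 and 8547 CPM in cKO, against 11508 and 10599 CPM in control. In JQ1 the sum was 9191 and 9010 CPM, against 9356 and 9741 CPM in JQ1 control, with 3 rows lower, 2 higher and 5 that did not pass (50.0% called, near the 39.8% of all genes). Matching sequences of other annotated genes, many of them pseudogenes, limit these counts. At 300 aligned bases and 95% identity, Gapdh matched 82 other annotated genes, 74 of them pseudogenes, Pgk1 and Eno1 matched 4 each, Ldha 3, Pkm and Pgam1 2 each, and Gpi1, Tpi1, Ldhb and Aldoa 1 each, so reads may be split or shared between them.

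Eno1, which forms phosphoenolpyruvate (GRCm39 chr4:150321178-150333336), had 1162 and 1156 CPM in cKO and 2084 and 1778 CPM in control. It fell by 0.74 on the log2 scale (SE 0.09, adjusted p = 0.00019). Under JQ1 Eno1 had 1193 and 1181 CPM, against 1548 and 1624 CPM in JQ1 control, a fall of 0.42 on the log2 scale (SE 0.05, adjusted p = 9.2e-14). The treated libraries lay below both controls in each experiment, and the difference of -0.32 ± 0.10 (adjusted p = 0.028) was lost without any 1 library of cKO, JQ1 or JQ1 control (adjusted p up to 0.13).

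Tpi1, which interconverts the triose phosphates, followed the same pattern. It had 431 and 421 CPM in cKO, against 691 and 603 CPM in control (-0.60 ± 0.09, adjusted p = 0.00062), and 559 and 539 CPM in JQ1, against 715 and 750.4 CPM in JQ1 control (-0.42 ± 0.05, adjusted p = 1.4e-12). Pgam1, a phosphoglycerate mutase, had 605 and 637 CPM in cKO, against 913 and 885 CPM in control (-0.53 ± 0.08, adjusted p = 0.00064). It fell by only 0.20 on the log2 scale in JQ1 (SE 0.05, adjusted p = 0.00043), a call lost without JQ1 library a (adjusted p = 0.094). The difference passed for Pgam1 (-0.34 ± 0.09, adjusted p = 0.0096, lost without cKO library 1 or JQ1 library b with adjusted p up to 0.078) and not for Tpi1 (-0.19 ± 0.10).

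Pgk1, the first ATP-yielding enzyme of the pathway (GRCm39 chrX:105230706-105247305), was called lower in cKO and higher in JQ1. It had 563 and 569 CPM in cKO and 875 and 748 CPM in control, and fell by 0.52 on the log2 scale (SE 0.09, adjusted p = 0.0018). Under JQ1 Pgk1 had 1312 and 1282 CPM, against 1119 and 1191 CPM in JQ1 control, and rose by 0.17 ± 0.05 (adjusted p = 0.0021). The small rise was lost without JQ1 library a or JQ1 control library a and in 1 fit over all libraries (adjusted p up to 0.10). The difference of -0.69 ± 0.10 (adjusted p = 0.00011) passed under every alternative tried that makes no demand on the size of the fold.

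The remaining enzymes changed by smaller amounts. Aldoa, the main aldolase here (96.2% or more of aldolase FPKM in each library), had 1089 and 1125 CPM in cKO and 1504 and 1275 CPM in control (-0.33 ± 0.10, adjusted p = 0.023). JQ1 cells had 1559 and 1482 CPM, against 1396 and 1457 CPM in JQ1 control (0.09 ± 0.05, adjusted p = 0.10). Aldoc, the minor isoenzyme, rose in both, with 47.2 and 49.3 CPM in cKO, against 34.7 and 35.97 CPM in control (0.45 ± 0.11, adjusted p = 0.0090), and 64.0 and 62.1 CPM in JQ1, against 49.2 and 54.0 CPM in JQ1 control (0.29 ± 0.08, adjusted p = 0.0022). Gapdh had 462 and 488 CPM in cKO and 606 and 599.7 CPM in control (-0.34 ± 0.08, adjusted p = 0.0086), and did not pass in JQ1 (-0.11 ± 0.05, adjusted p = 0.058). Gapdh, often used as a reference transcript, was thus called lower in cKO with all libraries, but not when either cKO library was left out. Its many pseudogene matches also limit this count.

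Pkm, the pyruvate kinase and the most abundant member, had 3903 and 4097 CPM in cKO and 4797 and 4669 CPM in control (-0.24 ± 0.08, adjusted p = 0.040). In JQ1 its level overlapped that of JQ1 control (0.01 ± 0.04). Eno2, the neuronal enolase, passed in neither experiment, at 2.35 and 3.33 CPM in cKO, 2.68 and 4.25 CPM in control, 10.55 and 11.3 CPM in JQ1, and 12.7 and 12.7 CPM in JQ1 control. The second Aldoa locus, at 0.467 to 1.40 CPM, passed in neither. In cKO the calls on Aldoa, Aldoc, Gapdh and Pkm were lost when either cKO library was left out (adjusted p up to 0.27, 0.15, 0.27 and 0.48). The differences for Aldoa (-0.42 ± 0.11, adjusted p = 0.0070) and Pkm (-0.25 ± 0.08, adjusted p = 0.034) were lost without cKO library 1 or JQ1 library a (adjusted p up to 0.057 and 0.18), and that for Pkm also without any other library of cKO, JQ1 or JQ1 control.

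**Figure D4:**
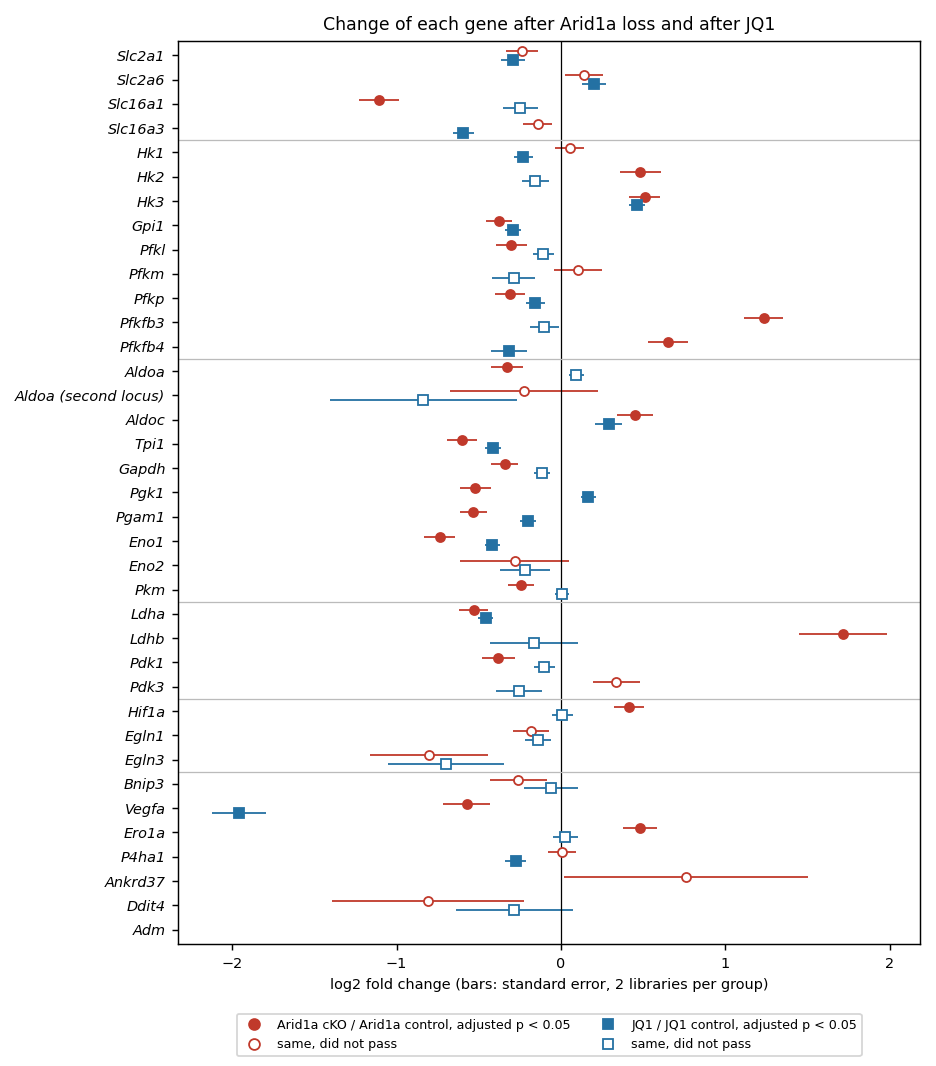
Log2 fold change with its standard error for each member row, for Arid1a cKO over control (circles) and JQ1 over JQ1 control (squares), 2 libraries per group, filled where the adjusted p was under 0.05, with lines between functional groups. The lower glycolytic genes lie left of 0 in cKO except Aldoc (0.45), and Pgk1 and Pfkfb4 have filled symbols on opposite sides of 0.

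At the branch after pyruvate, the lactate dehydrogenases moved apart in cKO. Ldha, the isoenzyme that favours lactate formation (GRCm39 chr7:46490899-46505051), had 860.3 and 877 CPM in cKO and 1329 and 1181 CPM in control (-0.53 ± 0.09, adjusted p = 0.0011). In JQ1 it had 973 and 971 CPM, against 1303 and 1367 CPM in JQ1 control (-0.46 ± 0.05, adjusted p = 1.8e-15). The difference of -0.07 ± 0.09 did not pass. Ldhb (GRCm39 chr6:142435975-142453683), whose subunit favours pyruvate formation, had 10.6 and 7.11 CPM in cKO and 2.56 and 2.83 CPM in control, a 3.28-fold rise (log2 1.72 ± 0.27, adjusted p = 0.00070). It overlapped between the groups in JQ1, at 3.80 and 3.48 CPM in JQ1 and 3.44 and 4.71 CPM in JQ1 control, and the difference was 1.88 ± 0.38 (adjusted p = 0.0014). Ldha still made up 97.5% or more of the FPKM of both genes in each library.

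The pyruvate dehydrogenase kinases, which close the entry of pyruvate into the citric acid cycle, did not move together in cKO. Pdk1 had 78.9 and 80.5 CPM in cKO and 98.9 and 109 CPM in control and fell by 0.38 on the log2 scale (SE 0.10, adjusted p = 0.014), a call lost without either cKO library (adjusted p up to 0.21). Pdk3 had 18.7 and 17.5 CPM in cKO and 14.2 and 14.4 CPM in control (0.34 ± 0.14, adjusted p = 0.093). Neither passed in JQ1, at -0.10 ± 0.07 for Pdk1 and -0.26 ± 0.14 for Pdk3. The difference passed for Pdk3 (0.59 ± 0.19, adjusted p = 0.029), but not with DESeq2 or without 1 of 5 libraries, namely cKO 1, cKO 2, JQ1 control a, JQ1 a and JQ1 b (adjusted p up to 0.13). Pdk3 supplied 41.8% and 39.8% of the FPKM of both kinases in cKO, against 30.4% and 28.7% in control, and 27.1% and 26.5% in JQ1, against 29.8% and 28.1% in JQ1 control.

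Among the oxygen-sensing genes, Hif1a, the oxygen-regulated HIF subunit, had 243 and 232 CPM in cKO and 171 and 185 CPM in control. It rose by 0.42 ± 0.09 on the log2 scale (adjusted p = 0.0051), a call lost without either cKO library (adjusted p up to 0.15). In JQ1 it overlapped, at 124.5 and 114 CPM in JQ1 and 119 and 117 CPM in JQ1 control. The difference of 0.40 ± 0.11 passed (adjusted p = 0.011), but not without cKO library 1, JQ1 control library a or JQ1 library b (adjusted p up to 0.080). HIF is controlled largely through the stability of this subunit, which transcript counts do not measure. The member prolyl hydroxylases Egln1 and Egln3, of the kind that marks HIF for degradation, passed in neither experiment. Egln1 had 76.0 and 87.2 CPM in cKO, against 97.1 and 87.9 CPM in control. Egln3 had 1.300 and 2.18 CPM in cKO, against 3.35 and 2.703 CPM in control. In JQ1 their log2 fold changes were -0.14 ± 0.08 for Egln1 and -0.70 ± 0.35 for Egln3.

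Vegfa, the angiogenic growth factor and a classical hypoxia target (GRCm39 chr17:46327919-46343295), fell furthest under JQ1. It had 5.87 and 4.18 CPM in JQ1 and 19.0 and 19.9 CPM in JQ1 control, a fold change of 0.257 (log2 -1.96 ± 0.17, adjusted p = 4.0e-20). In cKO it had 13.9 and 14.995 CPM, against 22.6 and 20.3 CPM in control (-0.57 ± 0.14, adjusted p = 0.011), a call lost without cKO library 1 (adjusted p = 0.11). Both perturbations thus lowered Vegfa, and the smaller fall in cKO gave a difference of 1.38 ± 0.22 (adjusted p = 0.00024). Of the 35 rows tested, Vegfa alone passed in JQ1 with a fold of at least 2, as did 793 of all 11352 genes tested. In cKO Slc16a1, Pfkfb3 and Ldhb did so, 3 of 36 rows, as did 1002 of all 11319 genes tested.

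Among the other hypoxia members, Ero1a was called in cKO and P4ha1 in JQ1. Ero1a, an oxidase of protein folding in the endoplasmic reticulum, rose in cKO, with 151 and 147 CPM in cKO and 98.8 and 115 CPM in control (0.48 ± 0.10, adjusted p = 0.0051). It overlapped between the groups in JQ1 (0.03 ± 0.07), and its difference of 0.45 ± 0.13 passed (adjusted p = 0.021). The rise was lost without cKO library 1 (adjusted p = 0.080) and the difference without cKO library 1 or 2, JQ1 control library a or JQ1 library a (adjusted p up to 0.14). P4ha1, a collagen prolyl hydroxylase, fell by 0.28 on the log2 scale in JQ1 (SE 0.06, adjusted p = 0.00018), with 116 and 111 CPM in JQ1 and 136 and 138 CPM in JQ1 control. In cKO it had 189 and 189 CPM, against 188 and 188 CPM in control. Its difference of 0.28 ± 0.10 (adjusted p = 0.042) was lost with DESeq2, with RLE or upper-quartile factors, with no filter on low counts and without any 1 library of cKO, JQ1 or JQ1 control (adjusted p up to 0.17).

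The last members gave no call. Bnip3, a mitophagy receptor, had 13.6 and 11.4 CPM in cKO and 16.6 and 13.3 CPM in control (-0.26 ± 0.17). It had 10.1 and 10.3 CPM in JQ1 and 12.6 and 8.66 CPM in JQ1 control (-0.06 ± 0.16), with overlap in both experiments. At 300 aligned bases and 95% identity Bnip3 matched 5 other annotated genes, 3 of them pseudogenes, so its reads may be split or shared. Ddit4, an inhibitor of mTOR signalling, had 0.309 and 0.833 CPM in cKO, 1.10 and 0.901 CPM in control, 2.54 and 1.65 CPM in JQ1, and 1.81 and 3.25 CPM in JQ1 control. Ankrd37, an ankyrin repeat gene, passed neither in the Arid1a experiment (0.76 ± 0.74) nor in the interaction (1.83 ± 1.11). The filter on low counts left it out of the JQ1 test. In JQ1 it had 9 reads, against 19 in JQ1 control, a scaled ratio of 0.470 with a 95% counting interval of 0.187 to 1.09. Adm, the vasodilator adrenomedullin, was left out of the tests by the filter on low counts. It had 10 reads in cKO, against 5 in control (ratio 2.01, interval 0.627 to 7.51), and 1 in JQ1, against 4 in JQ1 control (ratio 0.248, interval 0.00503 to 2.50). At these read numbers no change of Adm, or of Ankrd37 in JQ1, was detectable, and the intervals cover counting error only.

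The interaction over all 8 libraries tested directly where the responses differed. Of 36 rows 17 passed, 11 with a higher and 6 with a lower response to Arid1a loss than to JQ1, which is 47.2% against a background of 28.3% of 11767 genes (15.8% higher and 12.5% lower). With upper-quartile scaling in place of TMM the split was 9 higher and 8 lower. Higher responses belonged to Hk1, Hk2, Pfkfb3, Pfkfb4, Ldhb, Slc16a3, Pdk3, Hif1a, Vegfa, Ero1a and P4ha1, and lower ones to Aldoa, Pgk1, Pgam1, Eno1, Pkm and Slc16a1. Thus 5 of 10 lower glycolytic rows had a lower response to Arid1a loss and 0 a higher one. Among the 9 genes of the hexokinase and phosphofructokinase steps 4 had a higher response and 0 a lower one. Of these calls, those on Aldoa, Pgam1, Eno1, Pkm and Hk1 were each lost under some alternatives. Without cKO library 1 the number that passed was 8, and 8 of the 17 passed under every alternative tried that makes no demand on the size of the fold.

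Side by side, 7 genes were lower in both experiments (Gpi1, Pfkp, Tpi1, Pgam1, Eno1, Ldha and Vegfa) and 2 were higher in both (Hk3 and Aldoc). These are 20.0% and 5.71% of the 35 rows tested in both, against 6.12% and 5.3% of 10987 genes. In cKO the calls on Gpi1, Pfkp, Vegfa and Aldoc, and in JQ1 those on Pfkp and Pgam1, were lost under some alternatives. The members are also abundant, with medians of 110 CPM in the Arid1a and 79.6 CPM in the JQ1 experiment. All genes tested had medians of 31.8 and 32.1 CPM. Pfkfb4 was higher in cKO and lower in JQ1, as were 5.17% of all genes, and Pgk1 was lower in cKO and higher in JQ1, as were 1.55%. Each experiment had its own controls. The labels do not say whether the experiments were cultured or sequenced together, and an effect of that on the size of a response cannot be told apart from the difference between the perturbations.

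**Figure D5:**
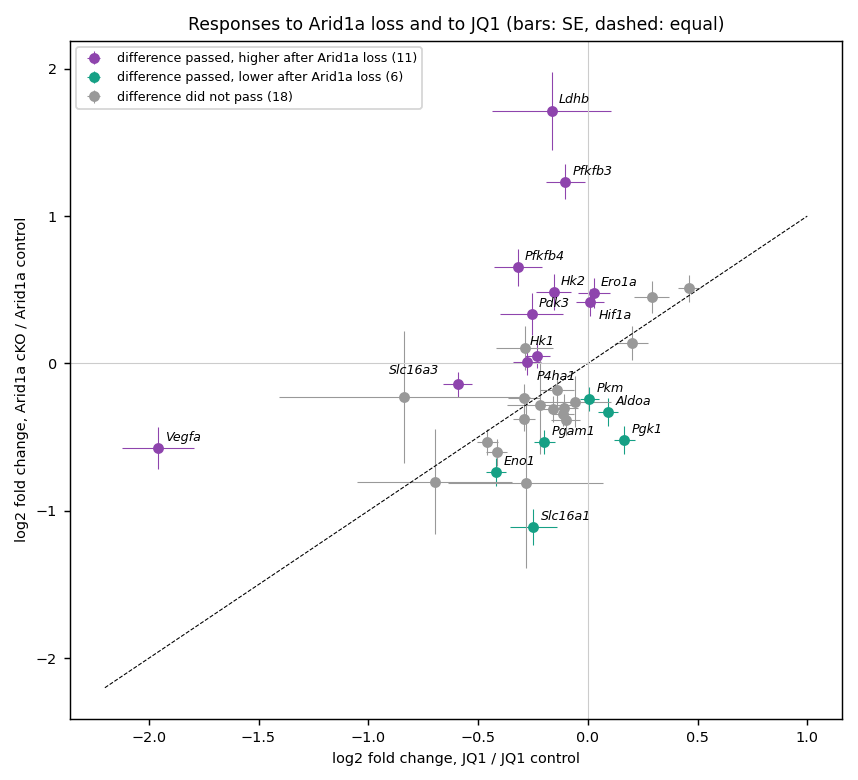
Log2 fold change of Arid1a cKO over control (vertical) against that of JQ1 over JQ1 control (horizontal) for the 35 rows tested in both, with standard errors and a dashed line of equal response. Named points passed the interaction test, 11 above the line and 6 below it. Vegfa stands apart on the left at -1.96, and Ldhb and Pfkfb3 at the top at 1.72 and 1.23.

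Calls in the Arid1a experiment depended on which library was left out more than on the tool. Leaving out a cKO library lowered the count over members and over all genes, and leaving out a control library raised both. Without cKO library 1 the count of members was 11 (5 higher, 6 lower), and without cKO library 2 it was 12 (5 higher, 7 lower), in place of 22, while DESeq2 on all libraries called 22. The control pair was the wider one, with a median size of the log2 ratio between its libraries of 0.143 over the members, against 0.0691 in cKO, 0.0644 in JQ1 and 0.0679 in JQ1 control. Of the 22 calls 10 passed under every alternative that makes no demand on fold size: Hk3, Pfkfb3, Pfkfb4, Tpi1, Pgk1, Pgam1, Eno1, Ldha, Ldhb and Slc16a1.

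Neighbouring pathways were described through lists outside the members. Of 33 other genes of glycolysis and pyruvate metabolism tested, 3 rose and 4 fell in cKO, which is 21.2% and below the background of 34.4%, and 7 rose and 7 fell in JQ1, near the background of 39.8%. Eno1b, an enolase gene that shares sequence with Eno1, fell in both, by 0.67 in cKO (adjusted p = 0.0015) and 0.35 in JQ1 (adjusted p = 0.0022) on the log2 scale. Pgm2, a phosphoglucomutase, had 50.4 and 45.6 CPM in cKO, against 71.1 and 69.8 CPM in control (-0.55 ± 0.11), and 58.3 and 59.5 CPM in JQ1, against 42.4 and 44.9 CPM in JQ1 control (0.43 ± 0.08). Slc2a3, a high-affinity glucose transporter, fell by 0.92 on the log2 scale in JQ1 (adjusted p = 8.4e-08) and did not pass in cKO (0.31 ± 0.15). The monocarboxylate carrier Slc16a7 was higher in cKO (0.59 ± 0.13) and lower in JQ1 (-0.34 ± 0.10).

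Also from that list, Slc2a8, an intracellular glucose transporter, was higher in both (0.72 ± 0.23 in cKO and 0.70 ± 0.14 in JQ1). Gbe1, the glycogen branching enzyme, fell by 0.54 on the log2 scale in cKO, and Pygb, a glycogen phosphorylase, rose by 0.29 ± 0.06 in JQ1.

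The pentose phosphate pathway, which supplies NADPH from glucose 6-phosphate, had more genes higher than lower in JQ1. Of its 8 genes 5 rose and 1 fell in JQ1 (of all genes 19.3% rose and 20.5% fell), while 2 rose and 1 fell in cKO (37.5%, near the background of 34.4%). G6pdx, its entry enzyme, rose in both, with 464 and 461 CPM in cKO, against 379.7 and 359.7 CPM in control (0.32 ± 0.08), and 473 and 460.1 CPM in JQ1, against 366 and 368 CPM in JQ1 control (0.35 ± 0.05). Pgd, the second NADPH-yielding enzyme, rose by 0.40 ± 0.05 in JQ1 (adjusted p = 1.2e-12) and not detectably in cKO (0.04 ± 0.08). H6pd, the enzyme of the endoplasmic reticulum, rose in cKO (0.52 ± 0.10) and fell in JQ1 (-0.19 ± 0.07). Tkt fell by 0.34 on the log2 scale in cKO, and Pgls (0.29 ± 0.08) and Taldo1 (0.17 ± 0.05) rose in JQ1.

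The citric acid cycle list fell in cKO. Of 17 genes 10 fell and 0 rose, which is 58.8% against the background of 34.4%, with a median log2 fold change of -0.31. In JQ1 3 rose and 7 fell (58.8%, against 39.8% of all genes), with a median of -0.04. Idh2, the mitochondrial NADP-dependent isocitrate dehydrogenase, led the list with 35.5 and 35.4 CPM in cKO, against 102 and 84.9 CPM in control (-1.40 ± 0.12, adjusted p = 1.3e-05), and it was higher in JQ1 (0.24 ± 0.07). Mdh2, Fh1 and Idh3a fell by 0.64, 0.57 and 0.55 on the log2 scale in cKO. Idh3a also fell by 0.50, Suclg2 by 0.35 and Suclg1 by 0.31 in JQ1, where Ogdh rose by 0.30 ± 0.05.

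Of 9 HIF pathway regulators tested, 0 rose and 2 fell in cKO (22.2%, under the background), and 5 rose and 1 fell in JQ1 (66.7%, against 39.8% of all genes). The genes that fell in cKO were Elob (-0.47 ± 0.12) and Rbx1 (-0.46 ± 0.13), subunits of the ubiquitin ligase that acts on HIF, while Eloc (-0.54 ± 0.20) did not pass. In JQ1 Arnt, the constant partner of HIF, rose by 0.37 ± 0.08, Epas1, a second alpha subunit, by 0.41 ± 0.10, and Hif1an, the asparaginyl hydroxylase, by 0.39 ± 0.08, whereas Cul2 fell by 0.25 on the log2 scale. Of 26 other hypoxia genes tested, 5 rose and 9 fell in cKO (53.8%, against 34.4% of all genes), and 7 rose and 10 fell in JQ1 (65.4%, against 39.8%).

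Within that hypoxia list, Mif, a cytokine-like tautomerase, fell in both, with 99.1 and 99.1 CPM in cKO, against 231 and 194 CPM in control (-1.10 ± 0.11), and 124 and 124 CPM in JQ1, against 188 and 196 CPM in JQ1 control (-0.63 ± 0.06). Cxcr4, a chemokine receptor, rose in both, with 62.7 and 53.5 CPM in cKO, against 16.1 and 15.6 CPM in control (1.87 ± 0.13), and 44.4 and 43.5 CPM in JQ1, against 23.0 and 26.6 CPM in JQ1 control (0.83 ± 0.10). Hmox1, the heme oxygenase, and Plin2, a lipid droplet protein, changed in opposite directions, at -0.51 ± 0.08 in cKO and 0.51 ± 0.05 in JQ1 for Hmox1, and 0.45 ± 0.10 in cKO and -0.51 ± 0.05 in JQ1 for Plin2. Bhlhe40 fell by 0.94 on the log2 scale in cKO, and Bnip3l, a mitophagy receptor related to Bnip3, rose by 0.66 ± 0.07 in JQ1.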

How the data were processed

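RNA of 8 BMDM libraries was sequenced. According to the submitters' processing notes reads were trimmed with Cutadapt, aligned with HISAT2 to GRCm39 and counted with HTSeq (annotation and strand setting: not given in the sources used here). The authors deposited read counts per gene together with FPKM, which in the Arid1a table equalled the count per gene length and library total in 100% of values. The 4 FPKM columns of the JQ1 table were not used, and FPKM were computed there from the counts by the same formula. Per table, 1 line held no values and was left out, and 51 genes carried no symbol.

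Counts were tested in edgeR 4.0.16 (R 4.3.3, limma 3.58.1): filterByExpr, TMM, robust quasi-likelihood fit per experiment, Benjamini-Hochberg over all genes, and an interaction over 8 libraries. Standard errors are the size of the log2 fold change over the square root of F. The script was tested on simulated data. DESeq2 1.42.0, other scalings, filters, GC and length offsets, a replicate block and leave-one-out fits were alternatives. CPM are TMM-scaled, and levels of different genes were compared in FPKM.

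The members and lists were chosen with earlier results of these data known. Named were all members, Arid1a and Hexim1, the 4 genes with the smallest p per pathway list and experiment, and defining markers. B cell, T and NK cell, erythroid, mast cell, megakaryocyte, stromal and dendritic cell marker lists were also measured. B cell and erythroid genes were at or below 1.88 CPM in sum in every library. Of the other lists, Gata2 and Itgax were higher in cKO, and Kit, Pf4 and Itgax lower in JQ1.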

Additional observations from a re-analysis of the deposited data

How the results depend on the processing

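No called member changed its direction under any alternative. The number of members called was 22 in cKO, 16 in JQ1 and 17 in the difference, and leaving out each library in turn gave 11 to 26, 12 to 16 and 8 to 21. A fold of at least 2 left 3, 1 and 3 members. Over all genes the main counts were 3892, 4516 and 3333. These were 2235 to 6083, 3251 to 3915 and 2214 to 4965 with a library left out, and 1002, 793 and 1213 with a fold of at least 2. One fit over all libraries called 2973 genes in JQ1. Where a fit leaves 1 library in a group, that library is assumed to vary like the others. With total counts in place of TMM, calls higher were 14.3% of the member calls and 36.4% of all calls in JQ1, in place of 25.0% and 48.45%. With upper-quartile factors they were 52.9% of the member calls in the difference, in place of 64.7%.

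Libraries share replicate numbers, but the numbers did not pair them (correlation of deviations 0.0095 in the Arid1a and -0.021 in the JQ1 experiment). The replicate block called 21, 15 and 14 members, without Pkm in cKO, Pfkp in JQ1 and Hk1, P4ha1 and Pkm in the difference, and the block with GC and length offsets 23, 18 and 19.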
